A study of Mus musculus with 6 samples.

Results

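The 10 genes described here encode machinery that moves uroplakin-carrying vesicles in the urothelium, measured in single cells of the mouse bladder mucosa. They are the small GTPases Rab27b, Rab11a and Rab8a, the RAB effectors Rab11fip1 and Sytl2, the motor Myo5b, the membrane-organising protein Mal, the sorting nexin Snx31, the fusion regulator Vps33a and the SNARE Vamp8. They were chosen by name and matched by Ensembl gene identifier, and all 10 were listed in all 6 deposited tables, out of 14347 genes shared by those tables once mitochondrial and ribosomal genes were set aside. All mice were wild-type C57BL/6 at 8 weeks of age, and each group had 2 libraries. Healthy mice were untreated, acute mice were examined 48 hours after cyclophosphamide (CPP, an alkylating drug whose urinary metabolites injure the bladder lining), and chronic mice after 4 rounds of CPP over 11 days. Each library pooled cells of several animals, so a library and not a mouse is the unit of every test.

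As background, the urothelium is a layered epithelium with basal cells at its base, intermediate cells above them and superficial umbrella cells facing the urine. Umbrella cells assemble uroplakins into stiff plaques, carry these in fusiform vesicles to the apical membrane, and retrieve them by endocytosis when the bladder empties. RAB GTPases label the vesicles and recruit motors and tethers, SNARE proteins drive fusion, and sorting nexins and multivesicular bodies take part in sending retrieved uroplakins to lysosomes.

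The layers were rebuilt from the counts. Of 49558 cells kept, 37158 were urothelial, and these were divided by marker scores of sub-clusters and cells into 3132 superficial-like, 22390 intermediate-like and 7260 basal-like non-cycling cells, called superficial, intermediate and basal from here on, and into cycling cells. The scores used uroplakins, keratins and other markers, such as Acer2 and Clu for superficial cells, but none of the 10 genes. The 10 genes were also kept out of the clustering, although layers and levels come from the same cells. Krt20, a superficial keratin, stood at 227 ± 54.3 CPM (counts scaled to library size, mean ± SD over 6 libraries) in superficial, 72.4 ± 14.9 in intermediate and 19.7 ± 5.68 in basal cells, and the basal keratin Krt5 at 133 ± 42.1, 593 ± 46.7 and 1107 ± 165. The 8 mesenchymal markers summed to 224 to 1001 CPM in superficial, 208 to 1001 in intermediate and 221 to 999 in basal cells, against 26591 to 57131 in mesenchymal cells. The 7 mural markers summed to 284 to 483, 102 to 154 and 48.0 to 97.2 CPM in the 3 layers, and the part of that rise in the layer differences was not tested. Median depth was 14008 UMIs (unique molecules) per superficial, 8814.5 per intermediate and 7442.5 per basal cell, and library totals ran from 54604109 to 111985678 UMIs.

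To show the sequence in front of these genes, 4 upstream regions were taken: those of Rab11a, Mal and Vamp8, which were higher in superficial cells, and that of Rab8a, which passed the test between no layers. They are RefSeq promoter sequences of GRCm38.p6, read 5′ to 3′ on the strand of the gene and outside annotated exons, at chr9:64737759-64738006 (minus strand, Rab11a), chr2:127656696-127656945 (minus, Mal), chr6:72390704-72390917 (minus, Vamp8) and chr8:72160950-72161199 (plus, Rab8a). Capitals mark matches on either strand to any of 6 motifs: AGATAA for zinc-finger factors such as Gata3, CCACCC for KLF and SP factors, CCGGAA for factors of the ETS family, AACCNGTT for grainyhead-like factors, TGACTCA for the AP-1 dimers and AGGTCA for nuclear receptors.
Rab11a: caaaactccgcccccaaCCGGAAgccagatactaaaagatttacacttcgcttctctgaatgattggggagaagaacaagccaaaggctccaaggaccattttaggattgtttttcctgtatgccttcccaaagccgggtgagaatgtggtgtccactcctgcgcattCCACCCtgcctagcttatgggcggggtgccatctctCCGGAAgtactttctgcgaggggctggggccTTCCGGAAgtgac
Mal: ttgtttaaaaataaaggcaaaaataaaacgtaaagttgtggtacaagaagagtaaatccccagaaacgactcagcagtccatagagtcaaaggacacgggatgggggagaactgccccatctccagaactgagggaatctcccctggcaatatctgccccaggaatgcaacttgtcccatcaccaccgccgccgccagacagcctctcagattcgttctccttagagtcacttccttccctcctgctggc
Vamp8: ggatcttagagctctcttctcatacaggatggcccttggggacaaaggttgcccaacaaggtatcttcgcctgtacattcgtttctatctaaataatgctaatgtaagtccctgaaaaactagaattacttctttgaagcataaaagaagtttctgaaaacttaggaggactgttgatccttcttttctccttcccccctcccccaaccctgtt
Rab8a: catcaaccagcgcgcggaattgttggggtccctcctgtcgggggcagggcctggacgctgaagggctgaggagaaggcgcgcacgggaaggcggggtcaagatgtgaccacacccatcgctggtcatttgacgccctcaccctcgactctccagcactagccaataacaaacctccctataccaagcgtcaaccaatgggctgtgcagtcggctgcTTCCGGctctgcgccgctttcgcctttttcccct
The Rab11a region held CCGGAA at 4 positions, of which 2 overlap on opposite strands, and CCACCC at 1, while the Rab8a region held CCGGAA at 1. The letters of the 6 motifs were not found in the Mal and Vamp8 windows. A region of 227 bases in front of Vps33a was also searched, held 0 matches and is not printed. Among 32544 promoter windows of 250 bases, CCGGAA was present in 12.1%, CCACCC in 28.1%, AGGTCA in 14.0%, AGATAA in 9.97%, TGACTCA in 4.46% and AACCNGTT in 1.79%.

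To place the trafficking genes along the urothelial layers, counts were summed per library and layer and compared within libraries. Snx31 had the steepest gradient of the 10, and Rab27b, Rab11a, Myo5b, Vamp8 and Mal also rose towards the surface, whereas Rab11fip1 was highest in intermediate cells and Rab8a differed between no layers by the test. In superficial against intermediate cells, edgeR's quasi-likelihood test called 6 of the 10 higher and 1 lower at an adjusted p under 0.05. All genes gave a high background there, with 28.1% of 11480 genes called higher, 27.3% lower and 55.4% in either direction. The median log2 fold change was 0.30 over the 10 genes and 0.01 over all genes tested. Superficial against basal cells had 8 of the 10 higher and 1 lower, where 33.8% of all genes were called higher, 32.7% lower and 66.5% either way, and the medians were 0.63 and 0.01. In intermediate against basal cells 8 of the 10 were higher, where 20.6% of all genes were called higher, 21.8% lower and 42.4% either way, and the medians were 0.39 and 0.00.

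**Figure D1:**
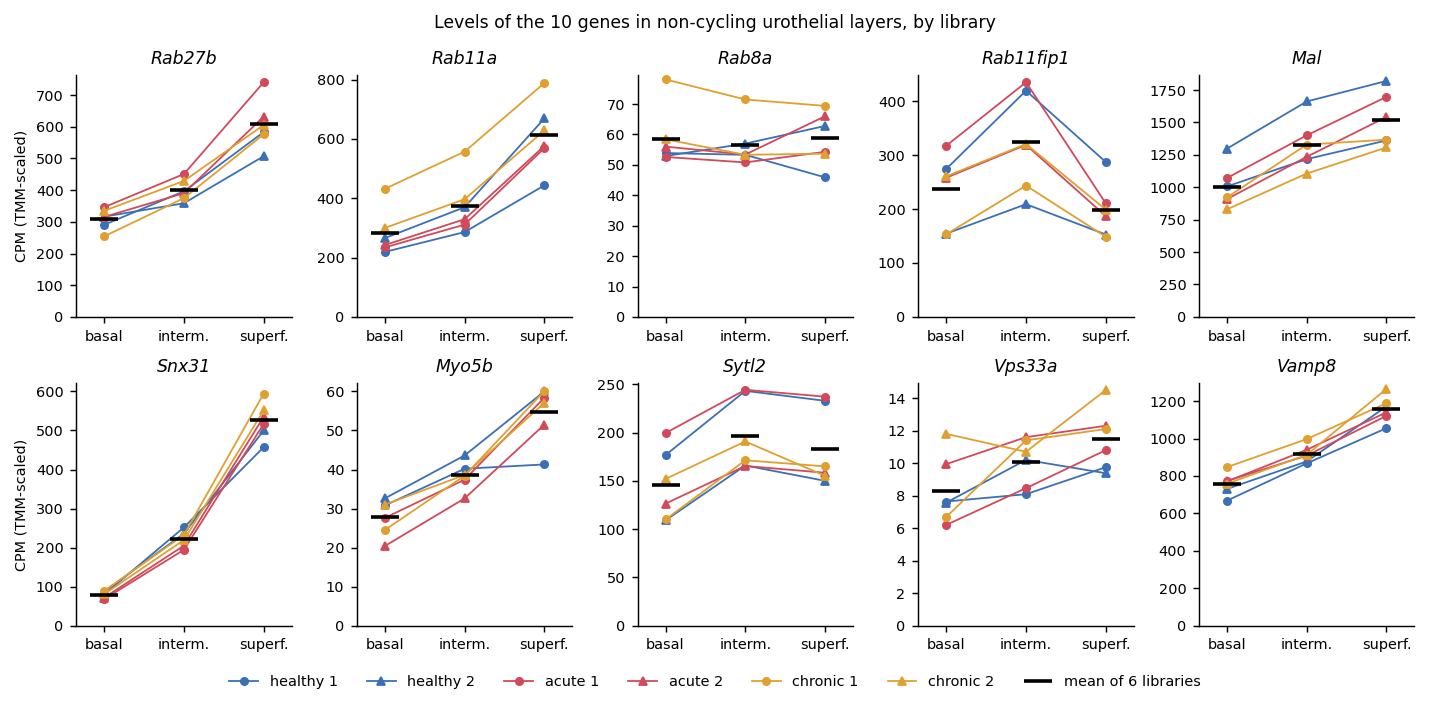
Level of each gene (y axis, CPM scaled by TMM factors, from 0) in basal, intermediate and superficial non-cycling cells (x axis); each line is 1 library, coloured by condition with a marker for the replicate, and black bars are means of 6 libraries. Snx31 climbs from a mean of 79.5 CPM in basal cells to values of 457 to 595 CPM in superficial cells, Rab11fip1 peaks at 324 CPM in intermediate cells, and the means of Rab8a stay between 56.6 and 58.7 CPM.

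Snx31 (chr15:36504062-36555573, minus strand, GRCm38), a sorting nexin that associates with uroplakins in multivesicular bodies, was in superficial cells at 457 and 500.2 CPM in the healthy libraries, 517 and 535.5 in the acute and 595 and 552 in the chronic ones. In intermediate cells the same libraries gave 252, 236, 194, 205, 232 and 219.5 CPM, and in basal cells 80.1, 87.0, 68.0, 71.8, 89.2 and 80.7. The ranges of the 3 layers did not overlap. Superficial cells were 2.43-fold above intermediate cells (95% interval 2.21 to 2.67, edgeR adjusted p = 2.2e-12, higher in 6 of 6 libraries) and 6.77-fold above basal cells (6.09 to 7.52, edgeR adjusted p = 2.6e-17, 6 of 6). With every cell thinned to 2500 UMIs, 66.0% ± 3.70 of superficial, 38.3% ± 2.68 of intermediate and 17.5% ± 2.55 of basal cells had a Snx31 UMI, against 9.16% ± 4.51 of mesenchymal cells (mean ± SD of 6 libraries, unthinned 92.5%, 59.7%, 25.8% and 11.2%). These shares rest on 2964 superficial, 20872 intermediate, 6724 basal and 6285 mesenchymal cells deep enough to be thinned, and the median depth of mesenchymal cells was 4032 UMIs.

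Among the GTPases, Rab27b (on chromosome 18), which marks secretory and fusiform vesicles, was in superficial cells at 583 and 507 CPM in the healthy libraries, 740.5 and 632 in the acute and 576 and 606 in the chronic ones. Its intermediate values ran from 359 to 451 CPM and its basal values from 254 to 346, so the ranges of the 3 layers did not overlap. It was 1.56-fold higher in superficial than in intermediate cells (95% interval 1.43 to 1.69, edgeR adjusted p = 7.1e-09, higher in 6 of 6 libraries) and 1.98-fold higher than in basal cells (1.82 to 2.16, edgeR adjusted p = 4.1e-12, 6 of 6).

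Rab11a (chr9:64715299-64737758, minus strand), the GTPase of recycling endosomes and their apical traffic, was at 444, 669, 569, 577, 789 and 628.5 CPM in superficial cells, in the order healthy, acute, chronic that also holds for the lists of 6 values below. In intermediate cells it was at 286, 369.8, 311, 329, 557 and 397 CPM and in basal cells at 219, 266, 234, 242, 432 and 300.0. The first chronic library was the highest in every layer, and the ranges overlapped although each library rose. The rise was 1.70-fold over intermediate cells (95% interval 1.56 to 1.85, edgeR adjusted p = 1.2e-09, 6 of 6) and 2.24-fold over basal cells (2.05 to 2.45, edgeR adjusted p = 8.0e-13, 6 of 6).

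Rab8a (chr8:72161200-72183904, plus strand), a GTPase of vesicles bound for the plasma membrane, had superficial values of 45.9, 62.8, 54.3, 66.0, 69.4 and 53.7 CPM, intermediate values of 53.3, 57.0, 50.8, 53.4, 71.5 and 53.3 and basal values of 53.9, 52.9, 52.6, 56.0, 78.1 and 58.4. The ranges overlapped throughout. Superficial cells differed from intermediate cells by 0.09 on the log2 scale (95% interval -0.05 to 0.23, edgeR adjusted p = 0.28, higher in 4 of 6 libraries) and from basal cells by 0.04 (-0.11 to 0.19, edgeR adjusted p = 0.65, higher in 3 of 6).

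The effector Rab11fip1 (chr8:27138773-27174646, minus strand), one of the Rab11 interacting proteins of endosomal recycling, was at 287, 153, 211, 187, 149 and 199 CPM in superficial, 419, 209, 435, 319, 243.5 and 320.5 in intermediate and 274, 154, 317, 258, 153 and 261 in basal cells. Libraries differed widely, but in each the intermediate cells were the highest of the 3 layers. Superficial cells were at 0.630 of the intermediate level (95% interval 0.564 to 0.703, edgeR adjusted p = 2.5e-07, lower in 6 of 6 libraries), and intermediate cells were 1.35-fold above basal cells (1.21 to 1.51, edgeR adjusted p = 8.7e-05, 6 of 6). The superficial level was also below the basal one, at 0.852 of it (0.761 to 0.955, edgeR adjusted p = 0.014, lower in 5 of 6), a call lost without the second acute library (adjusted p = 0.081) or the second chronic library (adjusted p = 0.059). It was also lost with basal cells assigned by the majority of their sub-cluster (edgeR adjusted p = 0.056), while without integration the difference was -0.37 on the log2 scale and passed in edgeR. Without library as a block in the fit the call was lost (edgeR adjusted p = 0.37), as was that of intermediate against basal cells (0.19). The estimates were then -0.24 and 0.44 on the log2 scale, against -0.23 and 0.44 with the block.

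Sytl2 (chr7:90302252-90410719, plus strand), a synaptotagmin-like effector that links Rab27 vesicles to the plasma membrane, was at 233, 150.0, 237, 158, 165 and 155 CPM in superficial and 243, 166, 244, 165, 171 and 191 in intermediate cells. The superficial value was the lower one in 6 of 6 libraries, but the difference did not pass the test (-0.07 on the log2 scale, 95% interval -0.20 to 0.05, edgeR adjusted p = 0.33). Basal cells, at 109 to 199.5 CPM, were exceeded 1.34-fold by intermediate cells (1.23 to 1.47, edgeR adjusted p = 9.1e-06, 6 of 6) and 1.28-fold by superficial cells (1.17 to 1.40, edgeR adjusted p = 4.6e-05, 6 of 6). The second of these calls was lost when cells were clustered without integration (adjusted p = 0.053). Without library as a block in the fit both were lost (edgeR adjusted p = 0.11 and 0.089). The estimates were then 0.42 and 0.35 on the log2 scale, against 0.43 and 0.35 with the block.

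Myo5b (on chromosome 18), an actin motor recruited by Rab11, had 7847 UMIs in all cells kept. It was at 41.3, 60.0, 58.4, 51.5, 60.1 and 57.1 CPM in superficial and 40.2, 43.6, 37.4, 32.6, 38.4 and 38.6 in intermediate cells. The first healthy library was the exception, with nearly equal values in both. Superficial cells were 1.47-fold above intermediate cells (95% interval 1.32 to 1.65, edgeR adjusted p = 3.4e-06, higher in 6 of 6 libraries) and 2.01-fold above basal cells (1.76 to 2.29, edgeR adjusted p = 3.6e-09, 6 of 6).

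Mal (chr2:127633226-127656695, minus strand), a raft protein that takes part in joining fusiform vesicles to the apical membrane, was at 1361, 1819.9, 1697, 1543, 1367 and 1307 CPM in superficial and 1217, 1661.5, 1400.3, 1234.5, 1329 and 1106 in intermediate cells, with broad overlap. Within libraries it was 1.18-fold higher in superficial cells (95% interval 1.09 to 1.27, edgeR adjusted p = 0.00081, 6 of 6), a call lost when cells were clustered without integration (adjusted p = 0.68). Intermediate cells were 1.30-fold above basal cells (1.21 to 1.41, edgeR adjusted p = 6.7e-06, 6 of 6). Without library as a block in the fit both calls were lost (edgeR adjusted p = 0.19 and 0.052). The estimates were then 0.23 and 0.38 on the log2 scale, against 0.24 and 0.38 with the block.

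Vamp8 (chr6:72385223-72390703, minus strand), a vesicle SNARE of exocytosis, was at 1056, 1171.5, 1122, 1140.5, 1189 and 1266 CPM in superficial cells and between 867.5 and 997 in intermediate cells, with no overlap. It was 1.30-fold higher in superficial than in intermediate cells (95% interval 1.20 to 1.40, edgeR adjusted p = 4.0e-06, 6 of 6) and 1.55-fold higher than in basal cells (1.44 to 1.68, edgeR adjusted p = 1.1e-09, 6 of 6).

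Vps33a (chr5:123528659-123573038, minus strand), a subunit of the HOPS tether that acts in delivery to lysosomes, was the least sampled of the 10, with 2377 UMIs in all cells kept. It was at 9.75, 9.38, 10.8, 12.3, 12.1 and 14.5 CPM in superficial, 8.09, 10.2, 8.46, 11.6, 11.4 and 10.7 in intermediate and 7.64, 7.57, 6.20, 9.94, 6.69 and 11.8 in basal cells, so the ranges overlapped. Superficial cells were 1.38-fold above basal cells (95% interval 1.15 to 1.66, edgeR adjusted p = 0.0025, 6 of 6). The step from intermediate to superficial cells was 1.17-fold (1.01 to 1.36) and missed the threshold (edgeR adjusted p = 0.061, higher in 5 of 6), as did that from basal to intermediate cells (1.18-fold, 1.01 to 1.38, edgeR adjusted p = 0.081). The former passed with the stricter filter on cells (edgeR adjusted p = 0.031) and without the second healthy library (0.043), and the latter without the second chronic library (0.035).

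**Figure D2:**
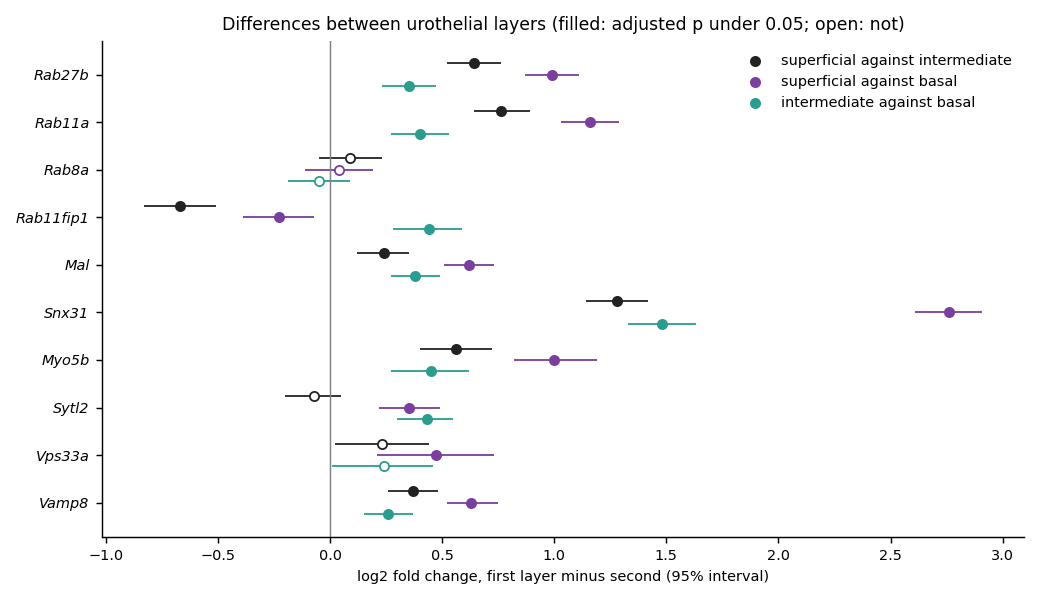
Log2 fold change of each gene (x axis, first layer minus second, with 95% intervals) for superficial against intermediate, superficial against basal and intermediate against basal cells; filled points passed an adjusted p of 0.05 in edgeR and open points did not. Snx31 lies farthest right of the 10 genes in all 3 comparisons (1.28 and 2.76 for superficial cells), Rab11fip1 is left of 0 for superficial cells (-0.67 and -0.23), and the points of Rab8a are open.

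The 14 urothelial sub-clusters gave a finer view, in plain CPM per library and without a test. The superficial sub-cluster, led by Fam25c, Psca and Acer2, had the highest mean level of Snx31 (479 ± 38.6 CPM), Rab27b (557.5 ± 73.9), Rab11a (558 ± 103), Mal (1391 ± 189) and Vamp8 (1040.4 ± 67.3), as it did for the 5 uroplakins. Rab11fip1 peaked elsewhere, at 434.5 ± 136.5 CPM in a sub-cluster led by Areg, Hbegf and Krt23 and at 408 ± 119 in one led by Fmo5, Sgpl1 and Ugt2b34, and was lowest at 142 ± 31.6 in one led by Krt15, Igfbp2 and Txnip. Sytl2 was highest in the sub-cluster led by Fmo5, at 228.5 ± 47.3 CPM. In the sub-cluster led by Tubb5, Fam25c and Tuba1b 96.0% of cells were called cycling. It had the highest mean of Myo5b (52.0 ± 6.02 CPM), Rab8a (66.4 ± 5.09) and Vps33a (12.4 ± 1.12), over 4 libraries. In the superficial sub-cluster these 3 were at 49.9 ± 6.54, 53.4 ± 7.28 and 10.3 ± 1.46 CPM. The ratio of the highest to the lowest sub-cluster was 8.28 for Snx31, inside the 4.61 to 9.54 of the uroplakins, and between 1.31 (Rab8a) and 3.05 (Rab11fip1) for the other 9.

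**Figure D3:**
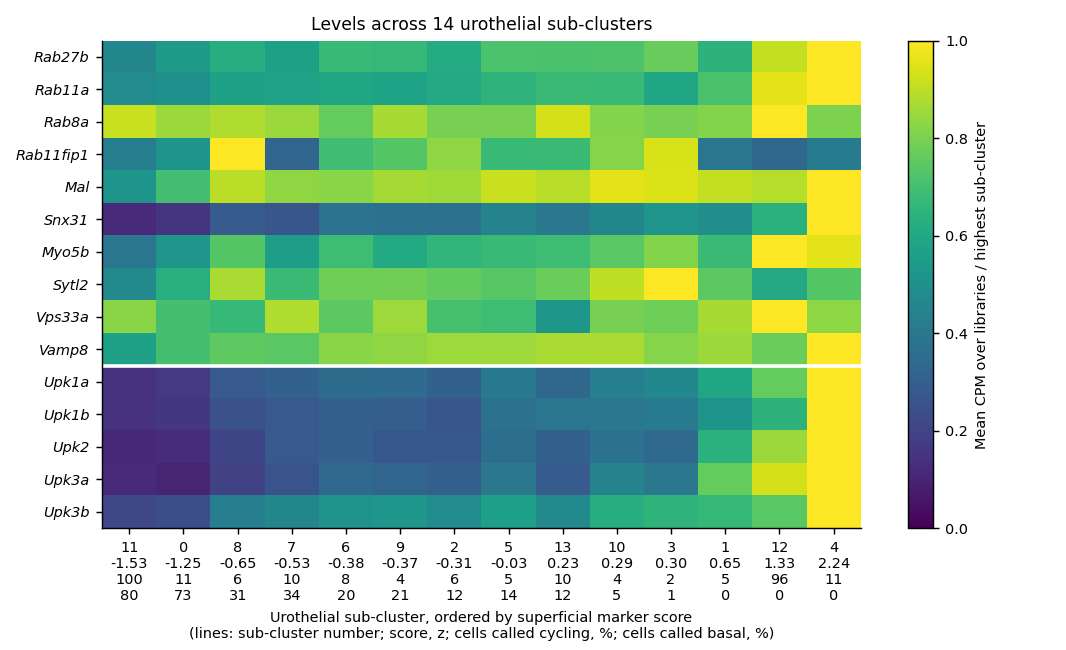
Mean level of each of the 10 genes and the 5 uroplakins (rows) in 14 urothelial sub-clusters (columns, in the order of their superficial marker score), as a share of the gene's own highest sub-cluster (colour, 0 to 1). Snx31 and the uroplakins, of which Upk1a, Upk2 and Upk3a are part of the score, are highest in the superficial sub-cluster, and Rab11fip1 is highest elsewhere.

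The genes closest to each member were found over 18 points, the 3 layers of 6 libraries, among genes with a mean of at least 50 CPM. The points share libraries and layers, and the correlations are descriptions. Snx31 was closest to Upk1b (Pearson r = 0.987), Gm13398 (0.986) and Upk3b (0.984). Rab11a was closest to Aldh3b2 (0.986), Hadhb (0.976) and Tmem45b (0.968), Rab27b to Mfsd4 (0.964), Rer1 (0.964) and Syngr1 (0.958), and Myo5b to Osbpl2 (0.968), Ermp1 (0.959) and Gata2 (0.950). Vamp8 was closest to Fam25c (0.975), Psca (0.974) and Ndufv3 (0.971), and Mal to Mmgt2 (0.906), Atp5j (0.894) and Gcsh (0.887). Rab11fip1 was closest to Ocln (0.951) and Cxadr (0.928), which encode junction proteins, and to F3 (0.897), all with their highest mean in intermediate cells. Sytl2 was closest to Tmcc3 (0.940), 9130008F23Rik (0.929) and Rtn4 (0.888), Rab8a to Cd9 (0.880), Prdx1 (0.872) and Ap1s1 (0.864), and Vps33a to Arpc4 (0.862), Bola2 (0.849) and Cox17 (0.844).

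Outside the urothelium the genes were set against their intermediate level in the same library. In mesenchymal cells Rab27b, Rab11fip1, Mal, Snx31, Myo5b and Sytl2 stood, at the median of 6 libraries, at 16.3%, 14.4%, 14.3%, 19.4%, 16.3% and 15.9% of the intermediate level. The 5 uroplakins, which mesenchymal cells should lack, were at 15.1% to 19.4%, so these 6 median levels lay at or just under this background. The background moved by library, from 6.96% to 8.38% for the uroplakins in the first healthy library to 34.6% to 42.4% in the second chronic library, and Snx31 moved from 6.59% to 33.7%. Within libraries the 6 genes fell on both sides of the uroplakins. Rab27b was above all 5 in the first healthy (10.6%), the first acute (14.5%) and the second chronic library (46.5%) and below them in the first chronic one (18.1%). The other 4 genes had medians above the uroplakins, with Rab11a at 52.4%, Vamp8 at 44.9%, Vps33a at 112% and Rab8a at 131% of the intermediate level. In 941 macrophages the uroplakins had medians of 26.2% to 29.6% and the first 6 genes of 24.7% to 33.0%, against 74.3% for Rab11a, 82.4% for Vamp8, 185% for Vps33a and 200.3% for Rab8a. In 485 endothelial cells of 5 libraries the uroplakins were at up to 34.3% and the 6 genes at 17.8% to 31.3%. There Rab11a was at 139%, Vamp8 at 52.9%, Vps33a at 140.0% and Rab8a at 98.1% of the intermediate level.

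**Figure D4:**
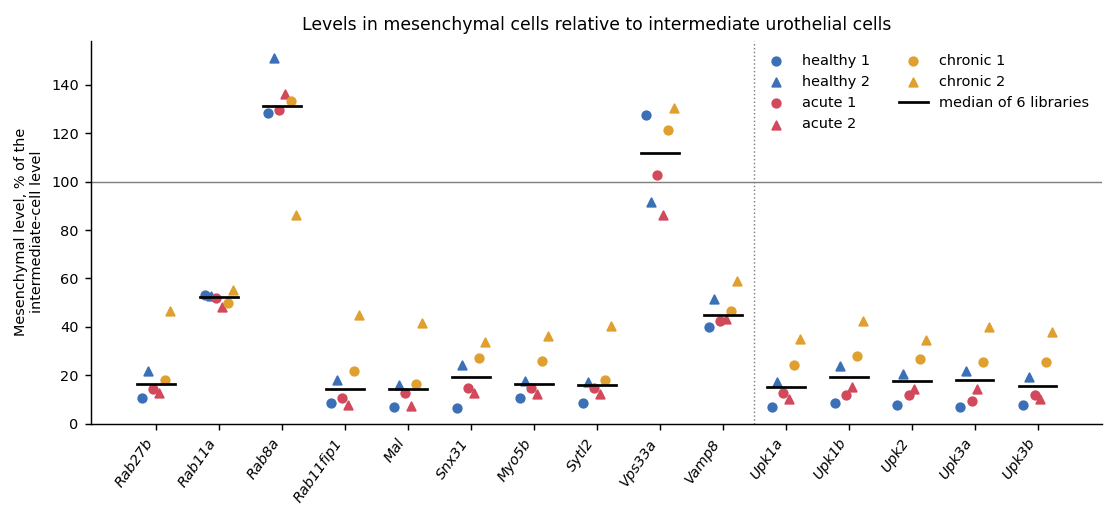
Level of each gene in mesenchymal cells as a percentage of its level in intermediate cells of the same library (y axis, from 0); points are the 6 libraries and black bars their medians. Rab27b, Rab11fip1, Mal, Snx31, Myo5b and Sytl2 have medians of 14.3% to 19.4%, near the 15.1% to 19.4% of the 5 uroplakins, with the second chronic library highest in each, while Rab11a, Rab8a, Vps33a and Vamp8 have higher medians.

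Cells called cycling by their S and G2/M scores had a smaller share of their UMIs in several trafficking transcripts than non-cycling cells. Cycling intermediate and basal cells were set against their own layer, and cycling cells with superficial markers against non-cycling superficial cells. Mki67, a proliferation marker that is also part of the G2/M score, ranged over libraries from 60.1 to 85.5 CPM in cycling cells with superficial markers, 4.48 to 84.7 in cycling intermediate and 29.9 to 186 in cycling basal cells. In the non-cycling classes it ranged from 0.469 to 2.81, 0.522 to 3.32 and 0.745 to 4.28 CPM. The lowest cycling intermediate library was thus close to the non-cycling range. The test of cycling cells with superficial markers had 4 libraries, because the healthy libraries held 11 and 16 such cells, under the minimum of 20. It called 6 of the 10 genes lower, where 17.0% of 11085 genes were called lower, 17.7% higher and 34.7% either way, and the medians were -0.17 over the 10 genes and -0.02 over all genes. In intermediate cells 5 of the 10 were lower, where 3.7% of 11635 genes were called lower, 5.46% higher and 9.15% either way, with medians of -0.20 and -0.02. In basal cells 6 of the 10 were lower, where 10.3% of 10059 genes were called lower, 11.6% higher and 21.9% either way, with medians of -0.30 and -0.03. In these 3 tests edgeR and DESeq2 called 0 of the 10 genes higher, and 0 were higher in edgeR at an unadjusted p under 0.05. With clusters made without integration the first test had 1 gene called, Vamp8, and the second 3, where 291 of 10059 and 3613 of 12242 of all genes were called. Rab11fip1 in the first and Rab27b and Snx31 in the second changed sign there. The sub-clusters were then made anew, so the classes held partly other cells. Without the first acute library the first test had 3, and 2615 of 10954 of all genes.

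The cycling cells with superficial markers were not the same sub-cluster as their comparator. Of 1208 such cells in all 6 libraries (1181 in the 4 tested) 815 were in a sub-cluster led by Tubb5, Fam25c and Tuba1b with a superficial marker score of 1.33. The other 393 were in the superficial sub-cluster, with a score of 2.24, which held all 3132 non-cycling superficial cells of the 6 libraries. Krt20 and Acer2, which are part of that score, were lower in the cycling cells too. Krt20 was at 137 ± 30.4 CPM (4 libraries) against 227 ± 54.3 (6 libraries) and Acer2 at 784 ± 56.5 against 1362 ± 395. Of the uroplakins, Upk1a, Upk2 and Upk3a are part of the superficial marker score and Upk1b and Upk3b are not. In the same test edgeR called Upk1b (-0.52 on the log2 scale), Upk3b (-0.42) and Upk1a (-0.39) lower. Upk2 (-0.14) and Upk3a (-0.11) did not pass. Marker means differed in the other 2 comparisons as well (6 libraries each). Cycling intermediate cells had Krt20 at 52.8 ± 17.7 CPM against 72.4 ± 14.9 and Upk1a at 2760 ± 733 against 3448 ± 776. Their Krt5 was at 648 ± 77.5 against 593 ± 46.7. Cycling basal cells had Upk1a at 837 ± 311 CPM against 1242 ± 330 and Krt14 at 90.0 ± 53.7 against 29.8 ± 13.5. Their Krt5 was at 1071 ± 169 against 1107 ± 165. The part of these differences in the values of the 10 genes was not tested.

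Snx31 was lower in all 3 tests: -0.58 on the log2 scale in cycling cells with superficial markers (edgeR adjusted p = 2.2e-09, lower in 4 of 4 libraries), -0.45 in cycling intermediate cells (adjusted p = 1.4e-05, 6 of 6) and -0.60 in cycling basal cells (adjusted p = 0.00051, 6 of 6). The first of these was -0.26 with clusters made without integration, where the call was lost (edgeR adjusted p = 0.07). The basal differences ran from -0.03 in the second healthy to -1.19 in the first acute library, and the estimate was -0.80 without the former and -0.39 without the latter. Its levels in cycling cells with superficial markers were 338 and 364 CPM in the acute and 351 and 375 in the chronic libraries, all below the 517 to 595 CPM of non-cycling superficial cells there. Vamp8 was also lower in all 3, at -0.44, -0.24 and -0.29 (edgeR adjusted p = 2.6e-07, 0.0018 and 0.0016), in every library of each test. Its call in intermediate cells was lost with basal cells assigned by the majority of their sub-cluster (-0.15, adjusted p = 0.065). Its values in cycling cells with superficial markers were 782, 809, 869 and 929 CPM, under every non-cycling superficial value.

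Rab27b was lower too, at -0.19, -0.26 and -0.31 on the log2 scale in the same 3 tests (edgeR adjusted p = 0.012, 0.0026 and 0.00094). In the second acute library it was nearly equal in cycling and non-cycling cells with superficial markers, at 610.0 and 632 CPM. The call in cells with superficial markers was lost without the first acute (adjusted p = 0.16) or the second chronic library (adjusted p = 0.06). Rab11fip1 was lower, at -0.26, -0.27 and -0.52 (edgeR adjusted p = 0.0053, 0.01 and 1.0e-05). Its call in cells with superficial markers was lost without the first acute (adjusted p = 0.1) or the second chronic library (adjusted p = 0.073), and that in intermediate cells without the first or the second acute library (adjusted p = 0.097 and 0.077).

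Mal was lower in cycling intermediate cells (-0.20, edgeR adjusted p = 0.0054) and cycling basal cells (-0.41, adjusted p = 6.9e-05), each in 6 of 6 libraries, and missed the threshold in cells with superficial markers (-0.13, 95% interval -0.25 to -0.02, edgeR adjusted p = 0.065). The intermediate value of Mal was -0.10 without integration (edgeR adjusted p = 0.24) and -0.08 with basal cells assigned by the majority of their sub-cluster (adjusted p = 0.43), and its call was lost in both. Sytl2 was lower in cells with superficial markers (-0.26, edgeR adjusted p = 0.0025) and in basal cells (-0.42, adjusted p = 0.00026), while its value in intermediate cells was -0.19 (-0.32 to -0.05, adjusted p = 0.084). Rab11a passed in cells with superficial markers (-0.15, edgeR adjusted p = 0.041), a call lost without the first acute (adjusted p = 0.11), the second acute (0.072) or the first chronic library (0.2), and whether the layers differ in it was not tested. Rab8a, Myo5b and Vps33a passed in none of the 3, with estimates of 0.13, 0.14 and -0.08 for Rab8a, -0.06, -0.17 and -0.24 for Myo5b and -0.05, -0.08 and 0.19 for Vps33a. Cycling and non-cycling cells had median depths of 18369.5 and 14008 UMIs with superficial markers, 6616 and 8814.5 in intermediate and 8378 and 7442.5 in basal cells. With every cell thinned to 2500 UMIs, edgeR called 3 of the 10 genes lower in the first test and 3 in the second, and 1648 of 8743 and 497 of 10417 of all genes either way.

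Several of these values moved with the processing. Without integration, Rab27b in cells with superficial markers was -0.01 (edgeR adjusted p = 0.98), Sytl2 -0.11 (0.81), Rab11a -0.12 (0.64) and Vamp8, still called, -0.26. In intermediate cells it gave -0.55 for Rab11fip1, still called, and a call for Sytl2, at -0.30 (edgeR adjusted p = 0.0064). With thinned cells the calls of Rab27b, Sytl2 and Rab11a were lost in cells with superficial markers (edgeR adjusted p = 0.25, 0.15 and 0.11), as were those of Rab27b and Rab11fip1 in intermediate cells (0.055 and 0.063). Rab11a with superficial markers was also lost in DESeq2 (adjusted p = 0.053) and with the stricter filter on cells (edgeR, 0.076), and Rab11fip1 in intermediate cells in DESeq2 (0.076).

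Most intermediate values were more negative when cycling cells had to exceed 4 MADs. In intermediate cells Snx31 was then -1.23, Mal -0.67, Rab11fip1 -0.63, Vamp8 -0.61 and Rab27b -0.51 on the log2 scale. The mix of cells differed there. In the sub-cluster led by Hmgb2, Ube2c and H2afz 97.3% of cells exceeded 4 MADs and 80.3% were called basal. Its superficial marker score was -1.53 and its mean Snx31 57.8 CPM. Apart from the sub-clusters of cycling cells with superficial markers, the others had at most 1.9% above 4 MADs. The part of this mix in the values was not tested. Sytl2 was -0.42 there and passed (edgeR adjusted p = 0.0067), as it did with no filter on low counts (0.017) and without the first chronic library (0.015). In basal cells Mal was -0.66 and Myo5b -0.48, a call gained (edgeR adjusted p = 0.04). Mal in cells with superficial markers was -0.16 and passed (edgeR adjusted p = 0.03), as it did with called doublets kept, RLE size factors or no filter on low counts. With basal cells assigned by majority, Snx31 was -0.26 in intermediate and -0.28 in basal cells and Rab11fip1 -0.31 in basal cells, all still called by edgeR. Without the library block the 3 tests had 1, 0 and 0 of the 10 genes called, and 922 of 11085, 237 of 11635 and 402 of 10059 of all genes.

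**Figure D5:**
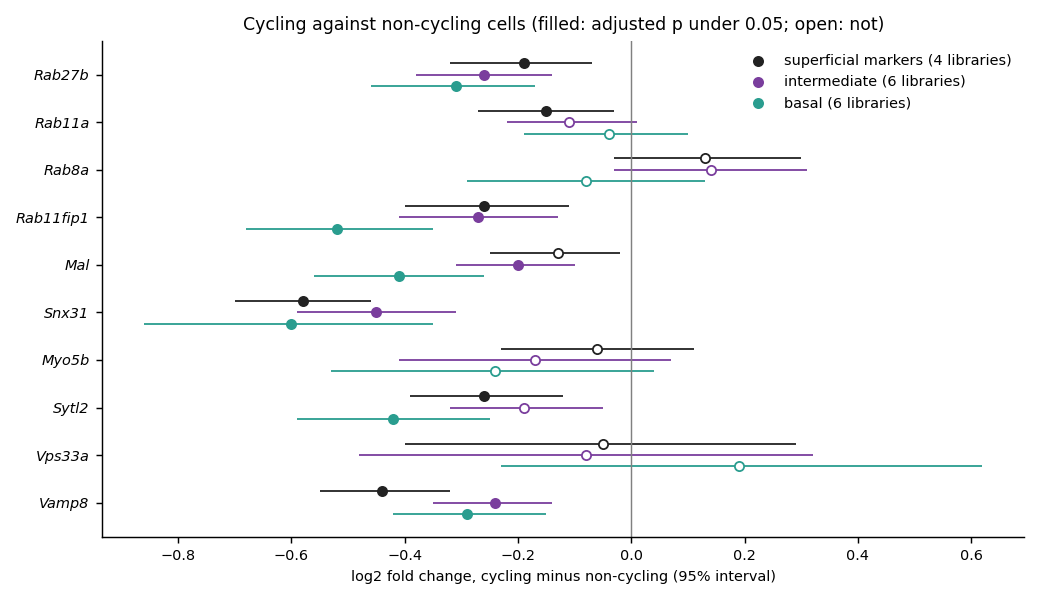
Log2 fold change of each gene (x axis, cycling minus non-cycling cells, with 95% intervals) in cells with superficial markers (4 libraries), intermediate cells and basal cells (6 libraries each); filled points passed an adjusted p of 0.05 in edgeR and open points did not. The filled points lie left of 0, from -0.15 (Rab11a) to -0.60 (Snx31), and Rab8a, Myo5b and Vps33a have open points in all 3. Without integration, where the classes held partly other cells, Rab11fip1, Rab27b and Snx31 changed sign in 1 of the 3 each.

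To ask whether CPP changed the trafficking genes, the conditions were compared within each layer, with 2 libraries in each group. By edgeR 0 of the 10 genes passed in any of the 6 comparisons, and 0.0% of 11259 genes in superficial, 13106 in intermediate and 11188 in basal cells, although 260 to 778 genes had an unadjusted p under 0.05 in each. DESeq2 called 8 to 51 genes in these comparisons and 0 of the 10. Among the 10, Rab11a in basal cells of chronic against healthy mice was the 1 with an unadjusted edgeR p under 0.05, and its edgeR adjusted p was 0.98. Its basal values were 219 and 266 CPM in healthy and 432 and 300.0 in chronic libraries, without overlap, a ratio of 1.53 (95% interval 1.01 to 2.33). On the log2 scale this was 0.62, and 0.33 without the first chronic library.

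The intervals were wide. Superficial Rab27b, higher without overlap between acute and healthy libraries, differed by 0.32 on the log2 scale (95% interval -0.13 to 0.77, edgeR adjusted p = 0.96). Superficial Snx31, higher without overlap between chronic and healthy libraries, differed by 0.24 (-0.19 to 0.67, edgeR adjusted p = 0.86). Superficial Vps33a did not overlap between them either (0.45, -0.23 to 1.13, edgeR adjusted p = 0.83). Without integration, where the classes held partly other cells, these 3 estimates were 0.07, -0.39 and 1.04, so that of Snx31 changed sign. Values without overlap lay in both directions. With 2 libraries in each group such values arise often by chance, and their share over all genes was not counted. Against healthy mice Vamp8 was higher in intermediate and basal cells of acute mice and in all 3 layers of chronic mice, Snx31 and Vps33a in superficial cells of acute mice, Rab11a and Vps33a in intermediate cells of chronic mice, and Rab8a in basal cells of chronic mice. Snx31 and Myo5b were lower in intermediate and basal cells of acute mice and in intermediate cells of chronic mice, and Mal in basal cells of chronic mice. None of these differences passed the test. Rab11fip1, with healthy intermediate values of 419 and 209 CPM, had intervals of -0.56 to 1.10 for acute and -0.99 to 0.67 for chronic against healthy intermediate cells.

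The contrast of superficial with intermediate cells of the same library was also compared between conditions, as an interaction. Of the 10 genes 0 passed in edgeR or DESeq2, where edgeR called 0.655% of 12677 genes for acute and 0.197% for chronic against healthy mice. An unadjusted edgeR p under 0.05 was found for 3 and 1 of the 10, and for 1251 and 1129 of the 12677 genes. The log2 difference of Snx31 was 0.86 and 1.08 in the healthy, 1.41 and 1.39 in the acute and 1.36 and 1.33 in the chronic libraries, lowest in the healthy ones. Against healthy mice it was larger by 0.41 in acute mice (SE 0.15, edgeR adjusted p = 0.28) and by 0.36 in chronic mice (SE 0.14, edgeR adjusted p = 0.43), and both comparisons share the healthy libraries. For Myo5b the difference was 0.04 and 0.46 in the healthy, 0.64 and 0.66 in the acute and 0.65 and 0.57 in the chronic libraries, with interactions of 0.39 (edgeR adjusted p = 0.46) and 0.36 (adjusted p = 0.57). For Rab11fip1 it was -0.55 and -0.45 in the healthy, -1.05 and -0.77 in the acute and -0.71 and -0.69 in the chronic libraries, with interactions of -0.43 (edgeR adjusted p = 0.27) and -0.21 (adjusted p = 0.76). Without the first healthy library the interactions of Myo5b were 0.19 and 0.16, without the second 0.60 and 0.57. That of Rab11fip1 in acute mice was -0.25 without the first acute library and -0.21 with thinned cells. Without integration the interactions of Snx31 were -0.21 and -0.17, those of Myo5b 0.12 and 0.08 and those of Rab11fip1 0.03 and 0.24, so Snx31 and Rab11fip1 changed sign. The classes held partly other cells there. The healthy libraries had 342 and 294 superficial cells, against 482 to 798 in the others.

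The wider trafficking machinery was followed with 90 further genes in 9 functional groups, of which 88 were in all tables and 85 were tested between layers. In superficial against intermediate cells 27 were higher and 13 lower, where 28.1% of all genes were called higher and 27.3% lower, with a median of 0.04 against 0.01 over all genes. SNARE and SM proteins had 12 of 18 higher and 3 lower, with a median of 0.27. Among them Stx8, an endosomal syntaxin, rose by 0.74 ± 0.07 on the log2 scale (estimate ± SE; 128 against 78.6 CPM, edgeR adjusted p = 4.2e-08) and Snap29 by 0.59 ± 0.06 (adjusted p = 7.9e-08), while the apical syntaxin Stx3 (-0.51 ± 0.08, adjusted p = 1.2e-05) and Stxbp3 (-0.38 ± 0.07, adjusted p = 0.00015) fell.

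Of 13 RAB GTPases beyond the members 2 were higher and 5 lower. This count and the group counts that follow are of the same comparison, with 28.1% of all genes called higher and 27.3% lower. Rab25, an epithelial relative of Rab11a, was higher (0.52 ± 0.05; 981 against 702 CPM, edgeR adjusted p = 4.9e-08), as was Rab14 (0.18 ± 0.05, adjusted p = 0.0077). Rab27a, the close relative of Rab27b, was lower, at 13.1 ± 7.88 CPM in superficial and 42.8 ± 10.5 in intermediate cells (-1.79 ± 0.18, edgeR adjusted p = 3.8e-08, lower in 6 of 6 libraries), the opposite direction to Rab27b. Rab4a, of early endosomes, was also lower (-0.68 ± 0.08, edgeR adjusted p = 7.0e-07).

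Among RAB effectors and exchange factors 4 of 12 were higher and 2 lower. Rab11fip5, another Rab11 interacting protein, was at 214.5 ± 52.3 CPM in superficial, 57.3 ± 7.83 in intermediate and 28.1 ± 5.83 in basal cells (1.93 ± 0.10 for superficial against intermediate, edgeR adjusted p = 4.4e-12, 6 of 6), the opposite direction to Rab11fip1. Unc13d, a Rab27 effector of granule priming, rose from 2.78 to 9.84 CPM (1.91 ± 0.22, edgeR adjusted p = 2.4e-07). The Rab27 effectors Sytl3 (-0.78 ± 0.13, edgeR adjusted p = 2.9e-05) and Mlph (-0.51 ± 0.09, adjusted p = 3.6e-05) were lower in 6 of 6 libraries.

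Of 5 myosin motors 2 were higher by edgeR, Myo5a (0.48 ± 0.06) and Myo1c (0.36 ± 0.08). Of 10 sorting nexins and retromer subunits 4 were higher, led by Vps29 (0.37 ± 0.07) and Snx17 (0.33 ± 0.06), and Snx1 was lower (-0.23 ± 0.07). Of 9 exocyst subunits 2 were higher, Exoc8 (0.59 ± 0.10) and Exoc4 (0.32 ± 0.10), and Exoc5 was lower (-0.37 ± 0.08). Chmp4b (0.29 ± 0.06) was the 1 of 7 ESCRT genes called, and Plp2 (-0.33 ± 0.06) the 1 of 3 MAL relatives. Of 8 tethering subunits edgeR called 0, with 2 at an unadjusted p under 0.05, where 6851 of 11480 genes were. In cycling cells the wider list had 24 of 84 lower and 6 higher with superficial markers, 5 of 85 lower in intermediate cells, and 8 of 82 lower and 5 higher in basal cells. Over all genes 17.0% were called lower and 17.7% higher in the first of these tests, 3.7% lower in the second, and 10.3% lower and 11.6% higher in the third.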

How the data were processed

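Single-cell RNA of the bladder mucosal layer was measured on the 10x Genomics platform in 6 libraries, 2 each of healthy, acute and chronic mice. The deposited tables hold counts, namely UMIs per gene and cell, which the authors made with Cell Ranger on mm10 per the submitters' notes; 1 table ends in an incomplete row, which was dropped. The labels call the libraries biological replicates and tie no library to single animals. The p-values between conditions within a layer thus measure the spread between these libraries. Those for layers, cycling and the interaction measure how differences within a library vary from library to library.

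Genes were joined by Ensembl identifier over the 14450 listed in all 6 tables. The filter on cells asked for more than 500 genes and less than 10% mitochondrial UMIs, mitochondrial and ribosomal genes were removed, doublets called with scrublet were left out, and libraries were integrated on 3000 features with Seurat 5.3.0. Leiden clusters were named from marker lists, clusters with over 33.3% called doublets were dropped, and cells above the median by 2 MADs in S or G2/M score were called cycling. Of 29650 basal and intermediate cells, 5.32% lay within 0.1 SD of the cut between them. Libraries shared 36 to 208 cell barcodes per pair, which were kept.

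Within each library, UMI counts of a class were added up where it had 20 cells or more. The main test was edgeR 4.0.16 (filterByExpr, TMM, quasi-likelihood, Benjamini-Hochberg over all genes tested), with library as a block for layers and cycling and without one for conditions; DESeq2 1.42.0 was an alternative. Printed levels are CPM with TMM factors over all classes, so their ratios differ slightly from the fitted folds. Scripts were tested on simulated data with planted changes larger than most of those reported here, so the recovery of smaller changes was not tested. Levels and folds are shares of the UMIs of a class and not molecules per cell. In summed counts, a lower share in each cell and fewer expressing cells cannot be told apart.

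The text names the 10 genes, from the wider list up to 2 called genes per functional group and direction with the largest change, and the 3 closest genes of each member. Members and lists were chosen with earlier results of these data known.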

Additional observations from a re-analysis of the deposited data

Results flagged for a closer look

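Over 120 sets of 4 to 6 libraries examined for an outlying value among the 10 genes, 8 stood out, and chance alone gives about 1 in 20. Rab8a in the first chronic library stood apart in intermediate cells (71.5 CPM, the next being 57.0), in basal cells (78.1, next 58.4) and in cycling basal cells (80.8, next 56.5). Mal was high in the cycling cells with superficial markers of the first acute library (1591 CPM, next 1251) and in the cycling basal cells of the second healthy library (1128 CPM, next 723). The within-library log2 difference of Myo5b between superficial and intermediate cells was 0.04 in the first healthy library, the next lowest being 0.46. Between cycling and non-cycling cells with superficial markers, Myo5b was at 0.03 in the first chronic library with the next at -0.13, and Rab27b at -0.05 in the second acute library with the next at -0.27.

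The log2 difference of Rab8a between superficial and basal cells had opposite signs in the acute libraries (0.04 and 0.24) and the chronic libraries (-0.17 and -0.12). The gap between their means was 0.29 and was not tested. The healthy libraries, at -0.23 and 0.25, spanned the values of both groups.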

How the results depend on the processing

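Over the 3 layer and 3 cycling comparisons the count of the 10 genes called moved by more than 1.5 times in 10 recounts, 9 of them in cycling cells. The 8 comparisons of conditions had 0 calls throughout, in a design that called few genes, which says nothing about their stability. With no library block (no replicate block), intermediate against basal cells had 4 genes called instead of 8 (and 1512 of 11480 over all genes), cycling cells with superficial markers 1 instead of 6 (922 of 11085), cycling intermediate cells 0 instead of 5 (237 of 11635) and cycling basal cells 0 instead of 6 (402 of 10059), by edgeR. That fit leaves out that the classes compared come from the same libraries. Clusters without integration gave 1 gene in cycling cells with superficial markers (3 libraries, 291 of 10059 over all genes) and 3 in cycling intermediate cells (3613 of 12242); cells thinned to the same number of UMIs gave 3 and 3 (1648 of 8743 and 497 of 10417), and assigning basal cells by the majority of the sub-cluster gave 3 in cycling intermediate cells (395 of 11623). The cause was not tested. Without integration 3 called values also changed sign: Rab11fip1 in cycling cells with superficial markers (0.02), and Rab27b (0.04) and Snx31 (0.13) in cycling intermediate cells. The classes held partly other cells there. In 1 sub-cluster of 1418 cells 72.4% were cycling, and its superficial marker score of 0.91 was under the threshold of 1.0. Another had 4729 of its 4730 cells from the second acute library. The part of this in the values was not tested. Leaving out 1 library gave 3 to 5 genes in cycling cells with superficial markers, 4 to 6 in cycling intermediate cells and 6 in cycling basal cells. It gave 7 to 8, 8 to 9 and 8 to 9 for superficial against intermediate, superficial against basal and intermediate against basal cells. Without the first acute library the first of these was 3, where 2615 of 10954 of all genes were called. The share over all genes is not given for the other fits, so these ranges are no result about the 10 genes alone. Among single values of the 10 genes, 52 lost a call with the same sign, the 3 that changed sign lost theirs as well, and 12 gained one.

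Between conditions no alternative called any of the 10 genes. The labels do not pair the replicate numbers. Same-numbered libraries had deviations with r of 0.35 to 0.48 between healthy and acute and -0.54 to -0.43 between healthy and chronic mice. Between acute and chronic mice r was -0.37 to -0.25. The replicate block gave 0 calls among all genes in edgeR, with 227 to 612 at an unadjusted p under 0.05. A block with the chronic numbers crossed, chosen after seeing the data, also gave 0 calls, with 1063 to 1222. Depth limits Vps33a and Myo5b most, and 2 libraries per group limit every comparison of conditions.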
